A study of Mus musculus with 6 samples.

Results

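The insulin-like growth factor (IGF) axis was described in colonic crypts through 10 genes, selected by symbol from a deposited table of 18049 genes. They were the ligand genes *Igf1* and *Igf2*, the receptor genes *Igf1r* and *Igf2r*, the binding protein genes *Igfbp3*, *Igfbp4*, *Igfbp5*, *Igfbp6* and *Igfbp7*, and *Igf2bp2*, which encodes an RNA-binding protein. All 10 were found, and all 10 were among the 16670 genes that passed the filter on low values.

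IGF1 and IGF2 are secreted growth factors that signal through the receptor tyrosine kinase IGF1R, which engages IRS adaptors and, downstream, the PI3K and AKT and the RAS and ERK branches. IGF2R, the cation-independent mannose 6-phosphate receptor, has no kinase domain, clears IGF2 by carrying it to lysosomes, and sorts newly made lysosomal enzymes. The IGFBP proteins bind the ligands outside the cell and limit or present them to the receptor, and IGF2BP2 binds mRNAs, among them *Igf2* mRNA. In the gut wall, the ligands and several binding proteins are mainly made by mesenchymal cells, while IGF1R and IGF2R are also present on the epithelium.

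Total RNA was sequenced from the crypts of 3 control mice and 3 mice given GSK503, an inhibitor of the histone H3K27 methyltransferase EZH2, with 1 library per mouse. All 6 were mice of a Lynch syndrome model on a C57BL/6J background that carries a *Villin-Cre* transgene, active in the intestinal epithelium, and a humanized *Tgfbr2* knockin, and the study fed such mice a Western-style diet. GSK503 was injected into the tail vein at 200 μg/kg in PBS, and the control mice received 20% captisol in PBS. The ages at collection are not given in the sources used here.

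Values are estimated CPM, that is, counts relative to the TMM-adjusted size of the library, and the libraries held an estimated 108162862 to 135085020 counts. *Xist* lay between 0.419 and 0.936 CPM in controls and between 825 and 1236 CPM after GSK503, and *Ddx3y* lay between 61.4 and 65.2 CPM and between 0 and 0.0915 CPM, so that sex and treatment cannot be told apart in these 6 libraries. The 8 epithelial markers summed to between 10034 and 11054 CPM in the control mice and between 10637 and 12355 CPM in the treated mice. Over 9 smooth muscle markers, GSK503-treated mouse 3 had 159 CPM, against 5.28 and 5.03 CPM in treated mice 1 and 2. The control mice had 27.2, 116 and 56.6 CPM, so treated mice 1 and 2 lay below all controls and treated mouse 3 above them. In such bulk samples, fewer cells of a type and less RNA per cell cannot be told apart.

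After GSK503 treatment, *Igf2r* was higher and *Igf1r* was lower, and no other gene of the 10 passed an adjusted p of 0.05 over all genes tested by limma. These 2 of 10 stand beside a background of 0.642% of all genes called in either direction (0.498% higher and 0.144% lower). *Igfbp6* passed 0.1, a threshold met by 1.97% of all genes (1.41% higher and 0.558% lower). The treated and control mice did not overlap for 4 of the 10 (*Igf2r* and *Igfbp6* higher, *Igf1r* and *Igf2bp2* lower), whereas this held for 19.1% of all genes (9.84% higher and 9.22% lower). Of the 10, 3 had a log2FC above 0 and 7 had one below 0, with a median log2FC of -0.25 beside -0.0053 over all genes. The members were chosen with earlier results of these mice known, so these counts describe the group and carry no test of it.

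**Figure D1:**
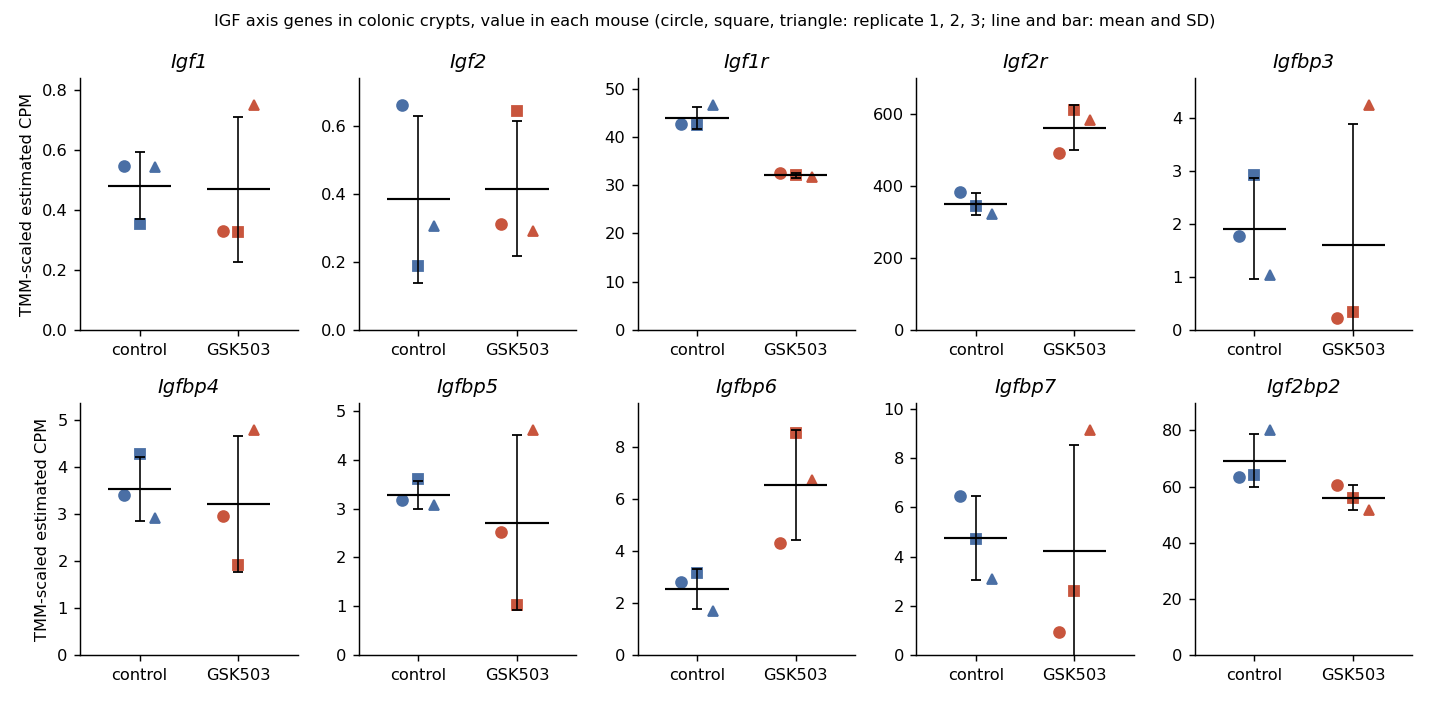
Value of each IGF axis gene in each mouse in TMM-scaled estimated CPM, each panel with its own axis from 0; circles, squares and triangles are replicates 1, 2 and 3, the horizontal line is the group mean and the bar is 1 SD (n = 3 mice), whose lower end falls below the axis for *Igfbp3* and *Igfbp7* after GSK503. The groups are separated for *Igf1r*, *Igf2r*, *Igfbp6* and *Igf2bp2*, and treated mouse 3 (triangle) is the highest of the 6 mice for 5 of the genes.

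The ligand genes were measured close to the lower end of the table. *Igf1* had 0.548, 0.353 and 0.543 CPM in control mice 1, 2 and 3 and 0.331, 0.327 and 0.749 CPM in treated mice 1, 2 and 3. *Igf2* had 0.662, 0.190 and 0.305 CPM in the control mice and 0.311, 0.645 and 0.291 CPM in the treated mice. For both ligands the groups overlapped, and each of these values rests on between 21 and 90 estimated counts. The log2FC was -0.09 for *Igf1* (SE 0.41, 95% interval -1.02 to 0.83, limma adjusted p = 0.951) and 0.14 for *Igf2* (SE 0.48, 95% interval -0.94 to 1.22, limma adjusted p = 0.936). Changes of ligand mRNA within these intervals are not excluded, and with 3 mice a group larger changes might not have been called either. *Igf2* (chr7:142204503-142220694, minus strand, GRCm39) also shares 3599 exonic bases with the readthrough gene *Gm49394* on the same strand, which was not analysed here, and how shared reads were divided is not given in the sources used here. *Igf1* lies at chr10:87693642-87772904 on the plus strand.

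*Igf1r*, which encodes the signaling receptor for both ligands, lies at chr7:67601518-67883416 on the plus strand. It had 42.8, 42.5 and 46.5 CPM in the control mice and 32.6, 32.01 and 31.6 CPM in the GSK503-treated mice. Every treated mouse was therefore below every control mouse, and the 3 treated mice lay closer together than the 3 control mice. The mean fell from 43.9 ± 2.27 to 32.1 ± 0.511 CPM (SD, n = 3 mice each), 27.0% lower, with a log2FC of -0.45 (SE 0.08, 95% interval -0.63 to -0.28, limma adjusted p = 0.0415). An exact two-sided permutation test of the 6 values gave p = 0.1, the smallest that 3 mice against 3 allow. *Igf1r* shares 1247 exonic bases with *Pgpep1l* on the opposite strand, a gene not analysed here, and the strand setting of the counting is not given in the sources used here, so reads there may not be fully separated. Leaving out any 1 mouse kept the log2FC between -0.47 and -0.41 but raised the limma adjusted p to between 0.0577 and 0.216, and without the intensity trend it was 0.211.

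The receptors and adaptors that work beside IGF1R gave smaller or less even differences. *Insr*, the gene of the closely related insulin receptor, with which IGF1R forms hybrids, had 134, 135 and 156 CPM in the control mice and 117, 113 and 108 CPM in the treated mice. The groups did not overlap, with a log2FC of -0.32 (SE 0.08, limma adjusted p = 0.123). This limma adjusted p lay between 0.0383 and 0.395 over 17 alternatives. It was below 0.05 only with library size alone as scaling, under which the table as a whole had a median log2FC of -0.12. *Irs1*, an adaptor phosphorylated by both receptors, had 11.4, 10.7 and 20.7 CPM and then 7.45, 6.79 and 11.5 CPM, and here treated mouse 3 overlapped the control mice (log2FC -0.70, limma adjusted p = 0.306). *Grb2*, which links the receptors to RAS, had a log2FC of -0.32 (limma adjusted p = 0.148) with no overlap between the groups. Of the 12 adaptor genes tested, 7 had a log2FC above 0 and 5 had one below 0. Without overlap, 2 were higher and 2 were lower, beside 9.84% and 9.22% of all genes. The ratio of *Insr* to *Igf1r* within a library was 3.22 ± 0.122 in control and 3.52 ± 0.0893 in treated mice (SD, n = 3 each, exact two-sided permutation test p = 0.1).

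*Igf2r*, which encodes the scavenging and lysosomal sorting receptor, was the most abundant gene of the axis and lies at chr17:12901293-12988614 on the minus strand. To show its regulatory sequence, the 250 bases before the RefSeq start (RefSeq table of GRCm38.p6, placed by 1 exact match in GRCm39) are given 5′ to 3′ on the gene's strand, chr17:12988594-12988843, with the E-box letters CACGTG in capitals.
Igf2r: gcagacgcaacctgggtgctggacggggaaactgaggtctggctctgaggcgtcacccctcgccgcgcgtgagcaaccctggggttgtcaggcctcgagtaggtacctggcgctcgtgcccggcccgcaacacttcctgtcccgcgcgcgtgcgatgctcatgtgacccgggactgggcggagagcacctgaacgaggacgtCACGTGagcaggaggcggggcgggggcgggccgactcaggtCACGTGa
Both matches read TCACGTGA, a palindrome that reads alike on the 2 strands, and they lie 48 to 43 and 7 to 2 bases before the RefSeq start. The GENCODE annotation starts the gene at 12988614, inside this window, so by that annotation the nearer match lies within the gene. CACGTG occurs in 6.04% of 32526 RefSeq promoter windows of this length and occurs at least 2 times in 0.433% of them, and TCACGTGA occurs at least 2 times in 0.0338%. The window also holds 27 CG dinucleotides, where the median window has 6, and 3 GC boxes (GGGCGG on either strand, in 33% of windows). A match of letters is a description, and binding or methylation at these bases was not measured here.

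In the 3 control mice *Igf2r* had 384, 345 and 322 CPM, and in the GSK503-treated mice it had 494, 613 and 583 CPM. The lowest treated mouse was above the highest control mouse. The mean rose from 350 ± 31.4 to 563 ± 62.0 CPM (SD, n = 3 mice each), 1.61-fold, with a log2FC of 0.68 (SE 0.10, 95% interval 0.45 to 0.92, limma adjusted p = 0.0229, exact two-sided permutation test p = 0.1). Leaving out 1 mouse at a time kept the log2FC between 0.62 and 0.77. The limma adjusted p then passed 0.05 in 3 of the 6 fits, and it was 0.0891 without control mouse 2, 0.0661 without control mouse 3 and 0.152 without treated mouse 2. Without the intensity trend it was 0.214.

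The ratio of *Igf2r* to *Igf1r* within a library, which does not depend on the scaling between libraries, restates these values on a single scale. Control mice 1, 2 and 3 had ratios of 8.98, 8.13 and 6.92, and treated mice 1, 2 and 3 had ratios of 15.1, 19.1 and 18.5. The mean ratio of the CPM values was 8.01 ± 1.04 in control and 17.6 ± 2.14 in treated mice (SD, n = 3 each). As it was formed from genes already seen to separate in opposite directions, it is given with no test. When library size alone was used as scaling, under which the table as a whole had a median log2FC of -0.12, the log2FC values were -0.56 for *Igf1r* (limma adjusted p = 0.0166) and 0.57 for *Igf2r* (limma adjusted p = 0.0378).

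**Figure D2:**
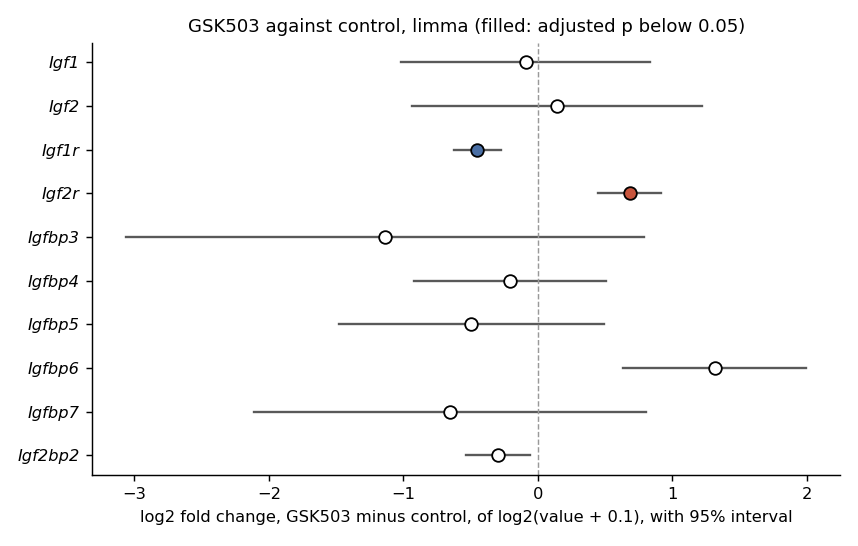
Log2FC of GSK503-treated against control mice for the 10 IGF axis genes from limma on log2(value + 0.1), with 95% intervals (n = 3 mice per group); filled points have an adjusted p below 0.05 over all genes. *Igf1r* (-0.45) and *Igf2r* (0.68) have narrow intervals away from 0, *Igfbp6* (1.31) has an interval from 0.63 to 1.997, and *Igfbp3* (-1.14) has the widest interval.

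The locus of *Igf2r* also gives rise to *Airn*, a long noncoding RNA transcribed from the opposite strand (chr17:12960198-13079299, plus strand) and known for silencing the paternal *Igf2r* allele in many tissues. *Airn* was looked at after its values were seen. It had 15.9, 9.93 and 14.7 CPM in the control mice and 22.6, 24.5 and 25.4 CPM in the treated mice, again with no overlap, and its log2FC was 0.86 (SE 0.17, limma adjusted p = 0.057, between 0.0422 and 0.251 over 17 alternatives). The ratio of *Airn* to *Igf2r* was 0.0386 ± 0.00883 in control and 0.0431 ± 0.00296 in treated mice (SD, n = 3 each, exact two-sided permutation test p = 0.6). The spans of the genes overlap by 28417 bases and their exons by 0 bases. The library kit keeps strand, but the strand setting of the counting is not given in the sources used here, so reads of *Airn* and intronic *Igf2r* reads may not be fully separated.

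Goblet cell markers moved with *Igf2r*. All 6 (*Clca1*, *Fcgbp*, *Tff3*, *Spdef*, *Agr2* and *Zg16*) separated the groups completely toward higher values after GSK503, as did 9.84% of all genes. Of the 6, 3 passed an adjusted p of 0.05 in limma (0.498% of all genes were called higher), and none was at 0. Their sum, mostly *Clca1* and *Fcgbp*, lay between 10122 and 18316 CPM in the control mice and between 31336 and 49874 CPM in the treated mice. The part of goblet cells in the *Igf2r* difference was not tested. The genes with the most similar profile over the 6 mice, taken as the smallest root mean square difference between centred log2 profiles, were *Rab27a* (0.0449), *Rab27b* (0.0603) and *Mcoln1* (0.0716). *Rab27a* and *Rab27b* encode small GTPases of secretory granule transport, and both had a limma adjusted p of 0.0157 with a log2FC of 0.69 and 0.65. *Mcoln1*, which encodes a lysosomal cation channel, had a log2FC of 0.57 (limma adjusted p = 0.0766).

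None of the genes that handle the same cargo as IGF2R was called. Of 8 genes for mannose 6-phosphate receptor sorting, 0 were called by limma, 0 had an unadjusted p below 0.05, and limma-voom also called 0. *M6pr*, the gene of the other mannose 6-phosphate receptor, had 214, 234 and 211 CPM in the control mice and 209, 221 and 227 CPM in the treated mice, with a log2FC of -0.0033 (95% interval -0.17 to 0.16). *Vps35* and *Vps26a* encode subunits of retromer, which returns such receptors from endosomes, and they had log2FC of 0.10 and -0.10. Each separated the groups, *Vps35* toward higher and *Vps26a* toward lower values, as did 9.84% and 9.22% of all genes. Of 18 genes for soluble lysosomal enzymes, a list added after values had been seen, 0 were called by limma or limma-voom, 3 had an unadjusted p below 0.05 (13.3% of all genes did), and the median log2FC was 0.03. The enzymes with the smallest p were *Neu1* (0.45), *Naglu* (0.27) and *Arsb* (-0.31), in log2FC. *Gnptab*, *Gnptg* and *Nagpa*, the 3 genes that build the mannose 6-phosphate tag and also added later, had log2FC of -0.15, 0.06 and 0.04, none of them called.

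Among the 5 binding protein genes, only *Igfbp6* had a log2FC above 0 in the fit over all 6 mice. Its protein binds IGF2 in preference to IGF1. The 250 bases before its RefSeq start, chr15:102052371-102052620 on the plus strand, are shown 5′ to 3′ for contrast with *Igf2r*, and no letters are in capitals because they hold none of the motifs searched.
Igfbp6: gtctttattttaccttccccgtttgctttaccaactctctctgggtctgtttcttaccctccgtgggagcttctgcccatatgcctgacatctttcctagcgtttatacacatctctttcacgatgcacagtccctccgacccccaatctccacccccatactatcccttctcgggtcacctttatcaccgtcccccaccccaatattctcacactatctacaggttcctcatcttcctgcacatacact
This window holds 7 CG dinucleotides, near the median of 6.

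*Igfbp6* (chr15:102052697-102057953) had 2.81, 3.17 and 1.69 CPM in the control mice and 4.33, 8.56 and 6.72 CPM in the GSK503-treated mice. The groups did not overlap, and the treated mice covered a wider range than the control mice. The mean was 2.56 ± 0.769 CPM in control and 6.54 ± 2.12 CPM in treated mice (SD, n = 3 each), a 2.56-fold difference with a log2FC of 1.31 (SE 0.30, 95% interval 0.63 to 1.997, exact two-sided permutation test p = 0.1). Its limma adjusted p was 0.0952 and lay between 0.0743 and 0.376 over 17 alternatives, below 0.05 in 0 of them, although its unadjusted p was 0.00171. With edgeR, the study named *Igfbp6* among upregulated genes of these crypts and *Igf1r* and *Igf2bp2* among downregulated ones. Of these, only *Igf1r* passed an adjusted p of 0.05 in the limma fit here.

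Markers of mesothelium, a cell type known for *Igfbp6* expression, were measured beside it. All 4 (*Msln*, *Upk3b*, *Lrrn4* and *Wt1*) were higher on average after GSK503, 2 of them without overlap (9.84% of all genes were higher without overlap), none was called by limma and none was at 0. Their sum lay between 2.09 and 4.31 CPM in the control mice and between 6.17 and 9.23 CPM in the treated mice, and their part in the *Igfbp6* difference was not tested. The genes nearest to *Igfbp6* in profile were *Slc10a2* (0.21), the ileal bile acid transporter gene, *Capn9* (0.227), a calpain gene of the gut epithelium, and *Anxa13* (0.233), an epithelial annexin gene. *Capn9* rose from a mean of 30.5 to 72.3 CPM, and *Anxa13* from 19.02, 20.2 and 13.7 CPM to 33.3, 40.7 and 46.1 CPM, each with a limma adjusted p of 0.0157, while *Slc10a2* overlapped between the groups (log2FC 1.08, limma adjusted p = 0.182). These distances are larger than those of the *Igf2r* neighbours.

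The other 4 binding protein genes overlapped between the groups and differed most among the treated mice. *Igfbp3*, whose product carries most circulating IGF, had 1.77, 2.93 and 1.03 CPM in the control mice and 0.220, 0.335 and 4.24 CPM in the treated mice. Treated mice 1 and 2 were the lowest of all 6 and treated mouse 3 was the highest, 19.2-fold above treated mouse 1. The log2FC was -1.14 (SE 0.86, 95% interval -3.06 to 0.79, limma adjusted p = 0.613), and without treated mouse 3 it was -2.32 (limma adjusted p = 0.0527). Without treated mouse 1 it was -0.44 (limma adjusted p = 0.903).

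*Igfbp7*, a low-affinity IGF binder found around vessels and stroma, had 6.45, 4.72 and 3.08 CPM in the control mice and 0.932, 2.61 and 9.13 CPM in the treated mice, again with treated mouse 3 highest and treated mouse 1 lowest. Its log2FC was -0.65 (95% interval -2.11 to 0.81, limma adjusted p = 0.718) and it was -1.47 without treated mouse 3 (limma adjusted p = 0.154). Without treated mouse 1 it was 0.11 (limma adjusted p = 0.964). *Igfbp7* (chr5:77493130-77555931, minus strand) shares 747 exonic bases with *Polr2b* on the opposite strand, so part of its value is uncertain for the reason given for *Airn*.

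*Igfbp5*, whose product binds extracellular matrix, had 3.17, 3.61 and 3.07 CPM in the control mice and 2.51, 1.02 and 4.60 CPM in the treated mice. The 3 control mice lay close together, with treated mice both above and below them, with a log2FC of -0.50 (95% interval -1.48 to 0.49, limma adjusted p = 0.674) that was -0.98 without treated mouse 3 (limma adjusted p = 0.227). Without treated mouse 2 the log2FC was 0.05 (limma adjusted p = 0.982). *Igfbp4*, whose product mostly restrains IGF action and is cleaved by the protease PAPP-A, had 3.42, 4.28 and 2.93 CPM and then 2.96, 1.92 and 4.78 CPM. Its groups overlapped as well, with a log2FC of -0.21 (95% interval -0.92 to 0.51, limma adjusted p = 0.829) and -0.53 without treated mouse 3 (limma adjusted p = 0.394). Without treated mouse 2 the log2FC was 0.10 (limma adjusted p = 0.957). *Igfbp3*, *Igfbp4* and *Igfbp5* lie at chr11:7156086-7164179, chr11:98932064-98945218 and chr1:72897091-72914043.

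Stromal markers varied across the same mice. The 9 smooth muscle markers summed to 27.2, 116 and 56.6 CPM in the control mice and to 5.28, 5.03 and 159 CPM in the treated mice, and the 9 fibroblast markers to 82.7, 105 and 89.4 CPM and to 42.0, 50.0 and 153 CPM. None of these 18 genes was called by limma or by limma-voom, and 1 had an unadjusted p below 0.05 (13.3% of all genes did). *Lmod1* and *Lum* were each at 0 in 1 treated mouse. The genes nearest to *Igfbp3* in profile were *Cxcl12* (0.165), a chemokine gene of stromal cells, *Crispld2* (0.203) and *Ppp1r14a* (0.228), a smooth muscle phosphatase inhibitor gene. For *Cxcl12* the values were 1.51, 2.24 and 0.897 CPM and then 0.153, 0.327 and 2.85 CPM, the order of mice seen for *Igfbp3*. The part of stromal cells in the values of *Igfbp3*, *Igfbp4*, *Igfbp5*, *Igfbp7* and *Igf1* was not tested.

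**Figure D3:**
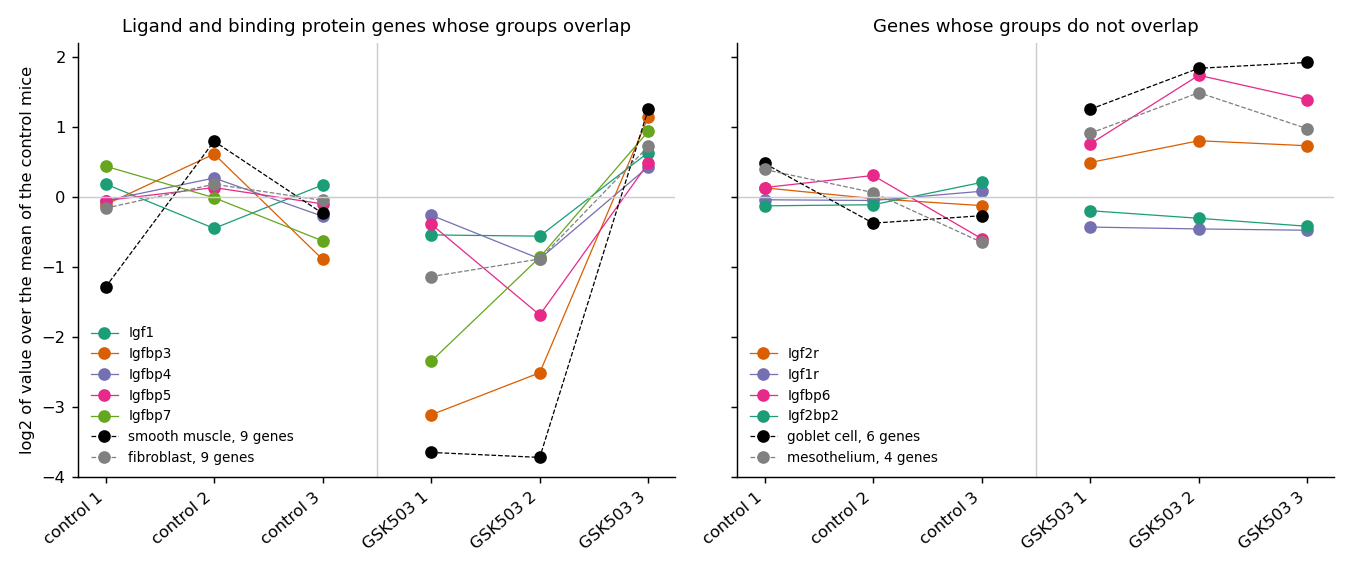
Log2 of each mouse's value over the mean of the 3 control mice; solid lines are IGF axis genes, dashed lines are summed marker genes, and the lines join mice of a group only to guide the eye. On the left, *Igf1* and 4 binding protein genes are below the control mean in treated mice 1 and 2 and above it in treated mouse 3, as are the smooth muscle and fibroblast sums; on the right, *Igf2r* and *Igfbp6* are above it in all 3 treated mice, as are the goblet cell and mesothelium sums, while *Igf1r* and *Igf2bp2* are below it.

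*Igf2bp2* (chr16:21877759-21982499, minus strand) had 63.4, 64.1 and 80.0 CPM in the control mice and 60.4, 56.0 and 51.8 CPM in the treated mice. The groups did not overlap, but treated mouse 1 lay only just below control mice 1 and 2. The mean was 69.2 ± 9.39 CPM in control and 56.1 ± 4.32 CPM in treated mice (SD, n = 3 each), with a log2FC of -0.30 (SE 0.11, 95% interval -0.53 to -0.06, limma adjusted p = 0.264, exact two-sided permutation test p = 0.1). Its nearest genes in profile were *Pcgf5*, *Med14* and *Brip1*, at 0.0351 to 0.0354, and none of the 3 was called. For *Igf1r* the nearest were *Lyn* (0.0311), a Src family kinase gene with a log2FC of -0.51 (limma adjusted p = 0.0157), *Upf3b* (0.0367), a gene of nonsense-mediated decay on the X chromosome, and *Mterf2* (0.0431). For the members whose groups overlapped, the nearest gene was *Ankrd61* for *Igf1* (0.0796), *3110045C21Rik* for *Igf2* (0.132), *Cacnb1* for *Igfbp4* (0.0613), *Prkar1b* for *Igfbp5* (0.154) and *Tril* for *Igfbp7* (0.142), none of them called.

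To compare genes with each other, the values were divided by the length of their exons. Per kilobase, *Igf2r* was highest in the control mice (37.4 CPM per kb), followed by *Igf2bp2* (8.61), *Igf1r* (2.22) and *Igfbp6* (1.85), then *Igfbp7* (0.872), *Igfbp4* (0.801), *Igfbp5* (0.547) and *Igfbp3* (0.536), and last *Igf2* (0.0626) and *Igf1* (0.0470). Within this order, *Igf1r* and *Igfbp6*, *Igfbp7* and *Igfbp4*, *Igfbp5* and *Igfbp3*, and *Igf2* and *Igf1* overlapped between neighbours over the 3 control mice. In the treated mice *Igfbp6* stood at 4.74 CPM per kb, above *Igf1r* at 1.62 without overlap, and *Igf2r* stood at 60.1. *Igfbp6* made up 40.6%, 41.3% and 37.7% of the summed level per kb of the 5 binding protein genes in control mice 1, 2 and 3 and 70.4%, 84.0% and 50.8% of it in treated mice 1, 2 and 3. Its share was lowest among treated mice in mouse 3, where the other 4 were highest.

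The remaining genes of the pathway were read from lists of known components. Among 12 tested genes of the wider IGF family and its proteases, 0 were called by limma or limma-voom, 4 had an unadjusted p below 0.05 (13.3% of all genes did), and 3 were lower without overlap (9.22% of all genes), namely *Insr*, *Pappa2* and *H19*. The median log2FC of the 12 was -0.31. *Pappa2*, which encodes a protease that cleaves IGFBP5, had 5.64, 8.08 and 7.88 CPM in the control mice and 3.75, 4.52 and 4.94 CPM in the treated mice (log2FC -0.69, limma adjusted p = 0.167). *H19*, the imprinted noncoding RNA beside *Igf2*, lay between 0.244 and 0.362 CPM and then between 0 and 0.183 CPM (limma adjusted p = 0.359), and it is named for the lack of overlap, seen in its values. *Stc2*, whose product inhibits PAPP-A, had 23.7, 26.3 and 29.3 CPM and then 36.3, 39.97 and 26.5 CPM (log2FC 0.35, limma adjusted p = 0.352), where treated mouse 3 overlapped the control mice.

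Downstream of the receptor, 0 of 12 adaptors, 0 of 31 genes of the PI3K, AKT and mTOR branch and 0 of 13 genes of the RAS and ERK branch were called by limma, and limma-voom called 0 in each as well. With an unadjusted p below 0.05 there were 2, 8 and 2 genes in these lists, beside 13.3% of all genes tested. Their median log2FC was 0.02, -0.0045 and -0.03. In these lists *Mapk3*, which encodes ERK1, had a log2FC of -0.31 and was not called (limma adjusted p = 0.212). Values for *Gab1* (-0.21), *Bad* (0.34), *Rictor* (-0.24), *Hras* (0.23) and *Braf* (-0.27), from the same lists, are log2FC of genes not called. Among 14 genes known to be induced by FOXO factors when IGF and insulin signaling is low, 0 were called by either tool, 3 had an unadjusted p below 0.05 against 13.3% of all genes, and the median log2FC was -0.07.

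The growth hormone receptor list, the pathway that drives *Igf1* in the liver, had a median log2FC of 0.23 over 8 genes. None was called by limma or limma-voom, and 4 had an unadjusted p below 0.05, as did 13.3% of all genes. *Cish*, a feedback inhibitor of STAT5 signaling, had 9.15, 8.49 and 8.55 CPM in the control mice and 12.3, 10.5 and 12.9 CPM in the treated mice (log2FC 0.44, limma adjusted p = 0.184). *Socs2*, a further inhibitor of the same receptor, was higher in each treated mouse too (log2FC 0.35, limma adjusted p = 0.186).

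**Figure D4:**
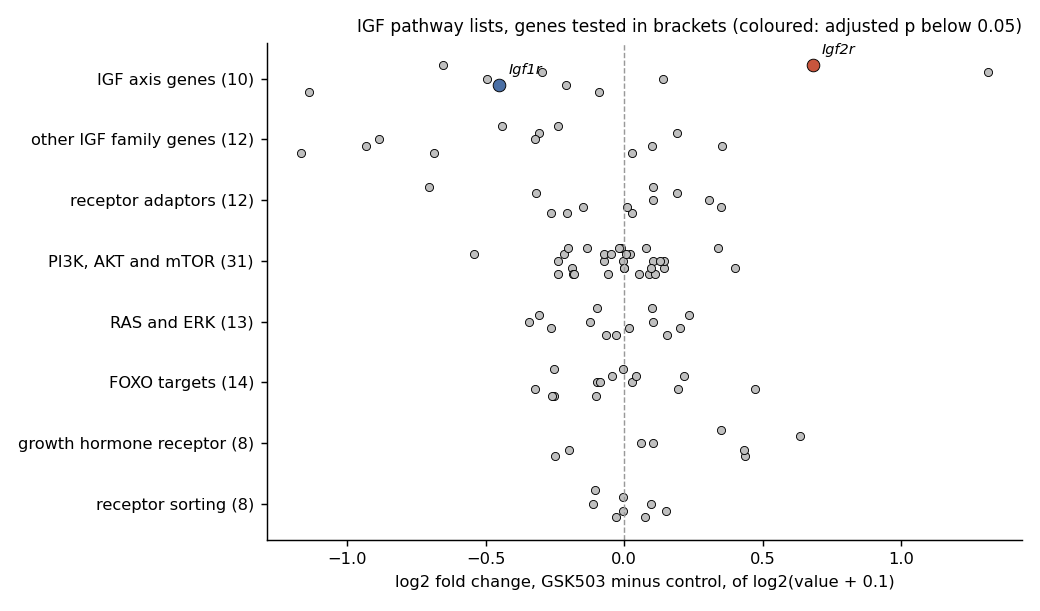
Log2FC of GSK503-treated against control mice for every tested gene of the IGF axis and 7 pathway lists, 1 point per gene (limma on log2(value + 0.1), n = 3 mice per group; vertical scatter within a row has no meaning). Only *Igf1r* and *Igf2r* are coloured, since none of the genes in the other lists had an adjusted p below 0.05.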

How the data were processed

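The samples were 3 control and 3 GSK503-treated mice, grouped by the treatment label. The authors used STAR to align 76 bp paired-end reads of a stranded total RNA kit to GRCm39, RSEM for gene-level estimates, and TMM factors from edgeR for scaling. The deposited signal of a gene is therefore a scaled estimate (CPM of the TMM-adjusted library), and not a raw count. Between 75.1% and 77.9% of the values in a library were whole multiples of its step, the worth of 1 count (tolerance 0.01), from which the totals were estimated. A value of 3 counts corresponds to 0.0228 to 0.0271 CPM. Totals and this floor cover counting error only.

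A count test does not suit scaled values, so limma (version 3.58.1, R 4.3.3) was fitted with lmFit and eBayes, with an intensity trend, to log2(value + 0.1) of the 16670 genes with at least 0.1 in at least 3 mice. Adjusted p values are Benjamini-Hochberg values over all of them. On this scale the log2FC of a gene with low values is smaller than its true change. No 2 libraries held identical values. As each mouse gave 1 library, p values measure the spread between mice. On simulated data, 13 of 67 genes changed 1.5-fold, 59 of 67 changed 2-fold and 66 of 66 changed 4-fold were called in the right direction, and 2.82% of 142 calls were false among 16445 genes. The simulated counts had an assumed spread, were independent between genes and held no outlying mouse or shift in cell types. These shares may therefore not hold for the real libraries.

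The members and gene lists were chosen with earlier results of these data known. Genes named were the members, the 3 genes of each pathway list with the smallest p (and any called), and the 3 nearest profiles of each member, of which the text gives 1 where a member's groups overlapped, except *Igfbp3*. *Igfbp1*, *Igf2os* and *Irs4* were not analysed here. Part of the genotype and 1 gene that this rule selects are not reported here. Loci and exon lengths are from the GENCODE annotation of GRCm39. Promoter windows of all 10 members were found in RefSeq's table. Alternatives were 2 other scalings, 2 filters, 2 pseudocounts, other variance models, limma-voom, a replicate block, leaving out X and Y genes, and leaving out each mouse. Plots used Python 3.11.15 and matplotlib 3.10.9. The single-cell, ChIP-Seq, organoid and human data were not analysed here.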

Additional observations from a re-analysis of the deposited data

How the results depend on the processing

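All 17 alternatives kept the signs of *Igf1r* and *Igf2r*, with 9 and 12 adjusted p values below 0.05. The number of IGF axis genes called was 2 and fell to 0 without the intensity trend and with the replicate block, and to between 0 and 1 when a mouse was left out (0 without control mouse 2, control mouse 3 or treated mouse 2). All genes called numbered 107 in the reported fit, 261 with library size alone (31.8% of them higher, against 77.6%), 16 without the trend, 33 with the replicate block and 29 to 216 with a mouse left out (44 without control mouse 2, 49 without control mouse 3, 63 without treated mouse 1, 29 without treated mouse 2, 216 without treated mouse 3). Without the trend the log2FC of *Igf1r* stayed at -0.45 (limma adjusted p = 0.211) and that of *Igf2r* at 0.68 (limma adjusted p = 0.214). With the replicate block they stayed at -0.45 (limma adjusted p = 0.123) and 0.68 (limma adjusted p = 0.108). Same-numbered mice had correlations of 0.0322, -0.126 and -0.119 in their deviations from the group means, and mice of different numbers -0.175 to 0.224. These values show no pairing by number, but with 3 mice a group they cannot exclude one. Leaving out a mouse gave a log2FC of -0.47 to -0.41 for *Igf1r* and 0.62 to 0.77 for *Igf2r*. The sign turned for *Igf1* without treated mouse 1 (0.069) or treated mouse 2 (0.076; range without a mouse -0.42 to 0.076), for *Igf2* without control mouse 2 (-0.17) or treated mouse 2 (-0.16; range -0.17 to 0.52), without treated mouse 2 for *Igfbp4* (0.10; range -0.53 to 0.10) and *Igfbp5* (0.053; range -0.98 to 0.053), and without treated mouse 1 for *Igfbp7* (0.11; range -1.47 to 0.11). The causes of these changes were not tested, and the fits without a mouse also rest on fewer samples. *Igf2* and *Igf1* give no value with the filter of at least 1 in 3 mice. *Igf1* and *Igf2* rest on 21 to 90 estimated counts in a mouse.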

Other observations

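Enteroendocrine cell markers were also measured beside the IGF axis, and 2 of the 4 were called lower, as were 0.144% of all genes. The 4 markers *Chga*, *Chgb*, *Neurod1* and *Pyy* summed to 189, 196 and 154 CPM in the control mice and to 98.3, 130 and 99.8 CPM in the GSK503-treated mice, and limma called *Chga* (log2FC -0.70) and *Chgb* (log2FC -0.85). *Neurod1* was not called (limma adjusted p = 0.294), and *Pyy* overlapped between the groups (log2FC -0.12). Among 6 B and plasma cell markers, 0 were called by limma or limma-voom and 3 had an unadjusted p below 0.05 (13.3% of all genes did), while their sum was 28.7, 65.1 and 20.7 CPM in control mice 1, 2 and 3 and 2.04, 1.27 and 60.3 CPM in treated mice 1, 2 and 3. The 7 T cell markers tested summed to between 10.95 and 18.4 CPM in the control mice and between 10.01 and 12.4 CPM in the treated mice.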
